A study of Homo sapiens with 9 samples.

Results

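The 10 genes described here form the core of the circadian clock: the repressors CRY1, CRY2, PER1, PER2 and PER3, the activators ARNTL (now named BMAL1) and CLOCK, the nuclear receptors NR1D1 and NR1D2, and the output factor DBP. They were taken by symbol from the deposited counts, and all 10 of 10 symbols were found, among 24462 symbols in all, 13676 of which had enough counts to be tested. CRY1 was included because it stood out between NnK-1 and control in earlier results of these data. The other 9 were added for their place in the clock, to see whether CRY1 differed alone or with them. CRY1's own difference between NnK-1 and control is therefore given as a description without a test.

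Transcripts were counted in U-373MG, an established human line labelled as glioblastoma and astrocytoma, in 3 groups of 3 libraries. The groups were untreated control cells, cells given 200 nM of NnK-1 for 48 h and cells given 200 nM of CBRV1-10493 for 48 h. Both agents are synthetic peptides modelled on jellyfish sequences that resemble ShK, a sea anemone toxin that blocks potassium channels. How long the control cells were kept is not recorded in the labels. The QuantSeq kit used here sequences the 3′ ends of polyadenylated RNA. All the cells are 1 line, the same control libraries served both peptides, and nothing in the labels says whether the cells were synchronised or at what hour they were harvested. Each library is thus 1 reading at an hour not recorded, and no rhythm can be read from these values. A difference in harvest hour between the groups could not be told apart from treatment.

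Libraries held 11203094 to 13491075 counts. Of the markers of the labelled cell type, VIM, NES and SOX2 were well covered (VIM at 3670 to 7267 CPM, the count divided by the library's total and multiplied by 1000000), GFAP lay at 19.7 to 28.98 CPM and S100B at 119 to 141 CPM, while AQP4 had 4 reads over all libraries and ALDH1L1 none. Among markers of other cell types, the 8 of microglia and immune cells summed to 3.12 to 8.67 CPM per library (PTPRC and AIF1 with 1 read each over all libraries, CX3CR1 with 0), the 7 endothelial ones to 0.893 to 3.88, the 8 of oligodendrocytes to 44.9 to 54.6 and the 8 of neurons to 406 to 532. Control replicate 2 stood apart in 16 interferon-stimulated genes, which summed to 504 CPM there and to 186 to 224 CPM in the other libraries. Of the 13 tested, 0 passed by edgeR's test in any comparison (at an unadjusted p under 0.05, 7 for NnK-1, 5 for CBRV1-10493 and 0 between the peptides). By the same test 7.33%, 2.89% and 4.31% of all genes tested had such a p in these comparisons. On the first principal component of log2 CPM NnK-1 replicate 2 was at 52.1 and the others between -18.6 and 9.00, and on the second CBRV1-10493 replicate 1 was at -44.9 and the others between -9.79 and 14.0. Values without these libraries are given where they matter.

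In the clock's main loop, CLOCK and BMAL1 bind E-box sequences as a pair and switch on the PER and CRY genes, whose proteins then return to block that pair. In a second loop the same pair drives NR1D1 and NR1D2 (REV-ERB alpha and beta), which repress ARNTL through elements that ROR receptors also bind. DBP, a further E-box target, acts on D-box sequences. Most cell types, astrocytes among them, carry this clock. CRY1 is known to be controlled by E-boxes, D-boxes and ROR elements together.

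The letters these factors recognise are shown first, since the loops are wired through them. RefSeq promoter windows (build GRCh38.p14, 250 bases before to 50 after a start) were found for 10 of 10 members, with 15 windows. Each was searched on both strands for the E-box CACGTG, the related E′-box CACGTT, the D-box TTANGTAA and the ROR element (AA, any base, then TAGGTCA), and no matches in the members' windows overlapped one another. Of the members' 15 windows the E-box was in 2 (7.26% of all 35116 windows), the E′-box in 5 (5.34%), the D-box in 3 (2.18%) and the ROR element in 1 (0.168%). For each motif, every such window belonged to a different member. A match is only a description of the letters. The 250 bases before the start are printed for CRY1 (chr12:107093550-107093799, minus strand), for its paralog CRY2 at the second of 2 listed starts (chr11:45847225-45847474, plus strand), and for PER1 (chr17:8152405-8152654, minus strand), PER2 (chr2:238288611-238288860, minus strand) and PER3 at the first of 2 starts (chr1:7784041-7784290, plus strand). For ARNTL 30 bases around the ROR element are printed (chr11:13277807-13277836, plus strand). The sequences run 5′ to 3′ on the gene's strand and capitals mark the matches.
CRY1: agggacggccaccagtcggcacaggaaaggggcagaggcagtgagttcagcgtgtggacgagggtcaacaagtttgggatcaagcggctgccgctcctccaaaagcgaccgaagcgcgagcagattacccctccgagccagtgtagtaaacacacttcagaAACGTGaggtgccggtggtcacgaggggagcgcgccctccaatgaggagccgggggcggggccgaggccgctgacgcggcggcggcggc
CRY2: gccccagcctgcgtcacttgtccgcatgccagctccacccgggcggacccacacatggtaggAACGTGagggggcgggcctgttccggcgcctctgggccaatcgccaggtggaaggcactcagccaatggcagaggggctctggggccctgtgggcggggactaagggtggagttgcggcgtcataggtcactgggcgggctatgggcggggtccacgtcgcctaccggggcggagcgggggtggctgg
PER1: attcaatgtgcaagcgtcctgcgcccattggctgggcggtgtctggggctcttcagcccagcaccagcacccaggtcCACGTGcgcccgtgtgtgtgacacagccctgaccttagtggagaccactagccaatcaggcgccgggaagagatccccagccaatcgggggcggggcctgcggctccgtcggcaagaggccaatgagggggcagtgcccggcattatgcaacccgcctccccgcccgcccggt
PER2: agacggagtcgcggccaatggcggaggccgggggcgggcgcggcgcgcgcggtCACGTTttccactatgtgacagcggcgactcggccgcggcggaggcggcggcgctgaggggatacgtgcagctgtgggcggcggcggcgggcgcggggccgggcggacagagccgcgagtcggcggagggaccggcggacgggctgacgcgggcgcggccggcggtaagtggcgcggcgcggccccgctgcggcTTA
PER3: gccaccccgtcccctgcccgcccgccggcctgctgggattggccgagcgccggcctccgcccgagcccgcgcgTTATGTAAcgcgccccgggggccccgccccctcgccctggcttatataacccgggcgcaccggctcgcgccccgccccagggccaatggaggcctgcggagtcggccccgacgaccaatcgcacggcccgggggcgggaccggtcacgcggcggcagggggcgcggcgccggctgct
ARNTL: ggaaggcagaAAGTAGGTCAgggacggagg
CRY1, CRY2 and PER2 shared the E′-box letters, which began 89, 188 and 197 bases before the start. NR1D1 and CLOCK held them as well (168 and 187 bases before). PER1 held the E-box itself 173 bases before its start, and NR1D2 held it in 2 places. The D-box of PER2 spans the start, so only its first 3 bases appear in capitals, and that of PER3 began 177 bases before. NR1D2 held a D-box as well, 194 bases before its start. DBP had no match in this window. Among the holders of the E′-box, the log2 fold changes with NnK-1 were 1.11 for CRY1, 0.63 for CRY2, 0.015 for PER2, -0.050 for NR1D1 and 0.098 for CLOCK. Those of the E-box holders were 0.0075 for PER1 and -0.032 for NR1D2. These values are described gene by gene next.

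CRY1, the repressor whose transcript prompted the question, stood at 6.42, 11.3 and 6.52 CPM in the control libraries, at 16.4, 18.3 and 16.7 CPM with NnK-1 and at 8.68, 10.6 and 13.6 CPM with CBRV1-10493. The reads behind these were 79, 142 and 88, then 206, 205 and 202, then 105, 130 and 165. All 3 NnK-1 libraries lay above every other library, the CBRV1-10493 libraries overlapped the controls, and the order of the group means was control, CBRV1-10493, NnK-1. Of all genes tested, 6.07% had every NnK-1 library above every control library. Group means were 8.07 ± 2.77, 17.1 ± 1.02 and 10.98 ± 2.48 CPM (SD, n = 3), and the neighbouring means of control and CBRV1-10493 did not differ beyond their spread. The spread between NnK-1 libraries was a coefficient of variation of 5.98%, and that between controls was 34.4%. Counting alone gives 8.25% at CRY1's mean count over all 9 libraries. It gives less at the higher NnK-1 counts and more at the lower mean count of the controls. In bulk RNA a level per cell and a share of cells cannot be told apart.

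The log2 fold change of CRY1 with NnK-1 against control was 1.11 (95% interval 0.60 to 1.63). Among the 10617 genes that averaged 5 CPM or more, 0 others had a higher log2 fold change in that comparison and 4 had one of larger size, all of them lower with NnK-1. These values chose the gene and are no test of it. Without control replicate 2, the library with high interferon-stimulated genes and the highest CRY1 of the controls, the value was 1.43. Without NnK-1 replicate 2 it was 1.05, and without both libraries that lay apart also 1.05. The range over the 9 fits that each left out 1 library was 0.97 to 1.43.

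With CBRV1-10493 against control, CRY1 had a log2 fold change of 0.46 (interval -0.059 to 0.98). The control libraries are among the values that chose CRY1, so this is a description as well. It was 0.77 without control replicate 2 and 0.28 without CBRV1-10493 replicate 3. Between the peptides, at the same dose and time, CRY1 was at -0.65 with CBRV1-10493 relative to NnK-1 (interval -1.16 to -0.15). It was -0.45 without NnK-1 replicate 2 and CBRV1-10493 replicate 1, the libraries that lay apart. The peptides' CRY1 values did not overlap, as in 4.39% of all genes tested that were lower in every CBRV1-10493 library. This comparison uses the NnK-1 libraries that drew attention to CRY1, so it too is a description.

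**Figure D1:**
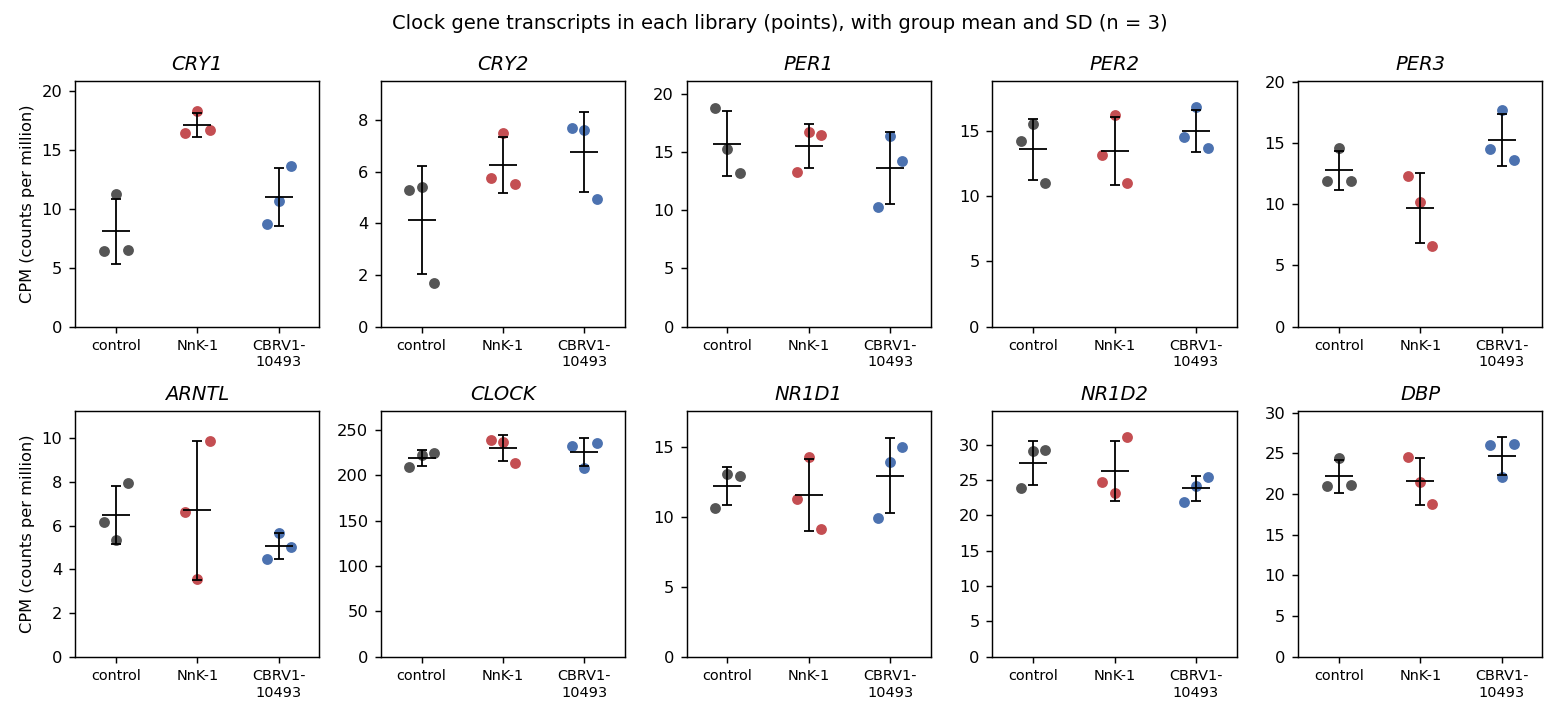
CPM of each clock gene in the control, NnK-1 and CBRV1-10493 libraries; points are libraries, the horizontal bar is the mean and the error bar the SD (n = 3), and each panel has its own axis from 0. CRY1 is the gene whose 3 NnK-1 libraries (16.4 to 18.3 CPM) stand clear of all others; most other panels show overlapping groups.

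CRY2, the paralog of CRY1 and a repressor of the same complex, stood at 5.28, 5.400 and 1.70 CPM in control, at 5.74, 7.50 and 5.53 CPM with NnK-1 and at 7.69, 7.62 and 4.95 CPM with CBRV1-10493. Control replicate 3, with 23 reads, was the lowest of the 9 libraries, and every NnK-1 library lay above every control library by a small margin. For comparison, 6.07% of all genes tested had every NnK-1 library above every control library. The log2 fold change was 0.63 with NnK-1 (interval -0.14 to 1.41; adjusted p = 0.728 by edgeR's quasi-likelihood test) and 0.73 with CBRV1-10493 (-0.043 to 1.51; adjusted p = 1.00), and neither passed. Without control replicate 3 these values were 0.26 and 0.36. CRY2's value with NnK-1 lay on the same side as CRY1's, and leaving out 1 library at a time moved it between 0.26 and 0.87. With CBRV1-10493 the range was 0.36 to 0.97.

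Within a library, the share of CRY1 among the reads of both CRY genes needs no scaling between libraries. It was 54.9%, 67.6% and 79.3% in control, 74.1%, 70.9% and 75.1% with NnK-1 and 53.0%, 58.3% and 73.3% with CBRV1-10493. The NnK-1 shares lay within the range of the controls. Counting error alone reached from 70.8% to 85.8% for the control library with the fewest reads (control replicate 3, 95% Wilson interval). Among the reads of all 5 CRY and PER genes, CRY1 held 11.4%, 18.2% and 14.7% in control, 27.0%, 26.6% and 29.6% with NnK-1 and 15.6%, 15.4% and 22.7% with CBRV1-10493. On that scale the NnK-1 libraries lay above the other 6. The share is made from the same CRY1 reads that chose the gene, so it is a description and no further support. Each interval is made within 1 library, so it covers counting error only and not the spread between libraries. Reads without molecular identifiers are not independent molecules, so the intervals may be too narrow even for counting error.

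**Figure D2:**
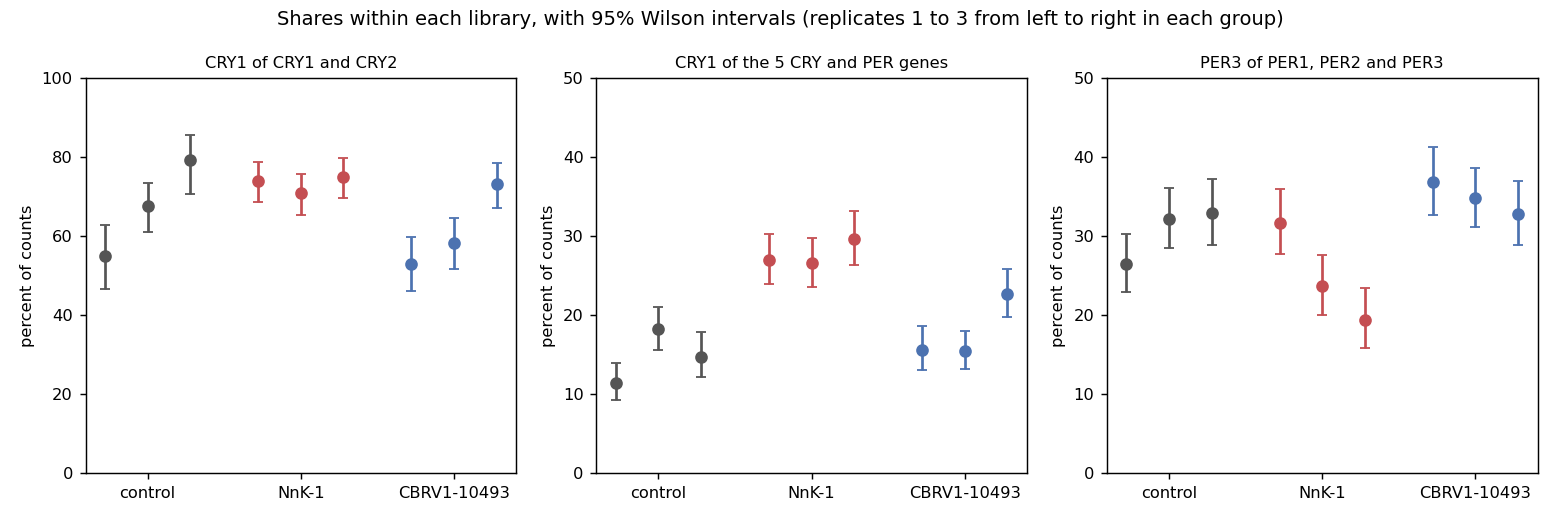
Share of counts within each library, in percent, for CRY1 among both CRY genes, CRY1 among the CRY and PER genes and PER3 among the PER genes; points are libraries, coloured by group, with 95% Wilson intervals. CRY1's share of the CRY reads overlaps between NnK-1 (70.9% to 75.1%) and control (54.9% to 79.3%), while its share of the 5 genes does not.

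The PER genes encode the partners with which CRY proteins enter the nucleus. PER1, which also responds quickly to cAMP and glucocorticoids, stood at 18.8, 15.2 and 13.2 CPM in control, at 13.3, 16.7 and 16.5 CPM with NnK-1 and at 10.3, 16.4 and 14.2 CPM with CBRV1-10493. The groups overlapped, and its log2 fold change with NnK-1 was 0.0075 (interval -0.44 to 0.45). PER2 stood at 14.2, 15.5 and 10.97 CPM in control, at 13.1, 16.2 and 10.97 CPM with NnK-1 and at 14.5, 16.8 and 13.7 CPM with CBRV1-10493. Its groups overlapped too, with a log2 fold change of 0.015 for NnK-1 (-0.43 to 0.46) and 0.16 for CBRV1-10493 (-0.28 to 0.60). For PER1 with NnK-1 the interval still allows a level between 0.739 and 1.37 times the control.

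PER3, the third PER gene and the least needed for the rhythm itself, had fitted values on the opposite side to CRY1's in the NnK-1 comparison. It stood at 11.9, 14.6 and 11.9 CPM in control, at 12.3, 10.2 and 6.60 CPM with NnK-1 and at 14.5, 17.7 and 13.6 CPM with CBRV1-10493. The lowest library was NnK-1 replicate 3, with 80 reads, and all CBRV1-10493 libraries lay above all NnK-1 libraries. The log2 fold change was -0.37 for NnK-1 against control (interval -0.86 to 0.11; adjusted p = 0.746 by edgeR's quasi-likelihood test) and 0.27 for CBRV1-10493 against control (-0.21 to 0.75; adjusted p = 1.00). The value for NnK-1 was -0.16 without NnK-1 replicate 3 and -0.57 without NnK-1 replicate 1. Between the peptides it was 0.65 (0.16 to 1.13, unadjusted p = 0.0118 and adjusted p = 0.994, the same test), so the difference did not pass over all genes. Without NnK-1 replicate 3 it was 0.43, the lowest of a range that reached 0.84 when single libraries were left out.

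PER3 and CRY1 were the members whose peptide groups did not overlap, 1 in each direction. Of all genes tested, 4.42% had every CBRV1-10493 library above every NnK-1 library and 4.39% had every one below. PER3's share of the PER reads was 36.9%, 34.8% and 32.8% with CBRV1-10493 and 31.7%, 23.7% and 19.4% with NnK-1. In control it was 26.4%, 32.2% and 32.9%. The peptides' shares did not overlap, but the Wilson intervals of the nearest libraries did. Those intervals were 28.8% to 37.0% for CBRV1-10493 replicate 3 and 27.7% to 36.0% for NnK-1 replicate 1. The share is made from the same PER3 reads, so it is a description and no further support.

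ARNTL, the partner of CLOCK and the activator whose loss alone stops the clock in mice, stood at 6.18, 5.32 and 7.93 CPM in control, at 6.61, 3.57 and 9.90 CPM with NnK-1 and at 4.47, 5.65 and 5.03 CPM with CBRV1-10493. The NnK-1 group held both the highest and the lowest library of all 9, from 120 and 40 reads. The log2 fold change with NnK-1 was 0.071 (interval -0.62 to 0.76). It was 0.36 without NnK-1 replicate 2 and -0.32 without NnK-1 replicate 3, so no direction can be given. With CBRV1-10493 it was -0.35 (-1.05 to 0.35; adjusted p = 1.00 by edgeR's quasi-likelihood test), and between -0.47 and -0.17 when 1 library was left out.

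CLOCK stood at 208.7, 223 and 225 CPM in control, at 239, 237 and 213 CPM with NnK-1 and at 233, 207.8 and 236 CPM with CBRV1-10493, with 2538 to 3029 reads in a library. It varied least of the members: its highest library was 1.15 times its lowest. The log2 fold change was 0.098 with NnK-1 (interval -0.097 to 0.29) and 0.058 with CBRV1-10493 (-0.14 to 0.25). For this gene a change beyond 1.23 times the control lies outside the NnK-1 interval. CLOCK's 3′ end overlaps that of TMEM165, a gene on the opposite strand with 85.3 to 110 CPM, and no source used here says whether reads were counted by strand, so the pair's reads may be mixed. TMEM165 had log2 fold changes of 0.057 and 0.10 for the same comparisons.

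NR1D1 (REV-ERB alpha), which represses ARNTL, stood at 10.6, 13.1 and 12.9 CPM in control, at 11.3, 14.3 and 9.15 CPM with NnK-1 and at 9.93, 13.9 and 15.02 CPM with CBRV1-10493. NR1D2 (REV-ERB beta) stood at 23.8, 29.1 and 29.3 CPM in control, at 24.7, 23.1 and 31.1 CPM with NnK-1 and at 21.9, 24.1 and 25.4 CPM with CBRV1-10493. Both overlapped between all groups. The log2 fold changes with NnK-1 were -0.050 (interval -0.53 to 0.43) for NR1D1 and -0.032 (-0.37 to 0.30) for NR1D2. With CBRV1-10493 they were 0.098 (-0.38 to 0.57) and -0.19 (-0.52 to 0.15). The last exons of NR1D1 overlap those of THRA, a thyroid hormone receptor on the opposite strand at 48.0 to 68.1 CPM, so the same caution on strand applies. THRA had a log2 fold change of 0.12 with NnK-1 and 0.0080 with CBRV1-10493. NR1D2 shares its locus with NKIRAS1 on the other strand, but their annotated exons do not overlap.

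DBP, the output factor that is often the most strongly rhythmic transcript of a clock, stood at 21.0, 24.5 and 21.1 CPM in control, at 24.5, 21.4 and 18.7 CPM with NnK-1 and at 26.0, 22.0 and 26.1 CPM with CBRV1-10493. The groups overlapped. The log2 fold change was -0.013 with NnK-1 (interval -0.35 to 0.33) and 0.17 with CBRV1-10493 (-0.17 to 0.51; adjusted p = 1.00 by edgeR's quasi-likelihood test). DBP overlaps SPHK2, a sphingosine kinase gene on the opposite strand, at its 3′ end; SPHK2 was at -0.18 and -0.31.

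Set together, 7 of the 9 members other than CRY1 had a log2 fold change within 0.1 of 0 for NnK-1 against control. Of the 10617 genes that averaged 5 CPM or more, 2110 lay between -0.1 and 0 there and 2289 between 0 and 0.1. For CBRV1-10493 against control 2 of the 9 members lay within 0.1 of 0, and between the peptides also 2. With NnK-1 the 9 members ranged from -0.37 (PER3) to 0.63 (CRY2), with a median of 0.0075 beside 0.0033 over all genes tested. Of them 5 lay above 0, where 50.6% of all genes did. By edgeR's quasi-likelihood test 0 of these 9 passed over all genes (adjusted p from 0.728 to 0.996) and 0 had an unadjusted p under 0.05. Of all 13676 genes 0% passed in either direction and 7.33% had an unadjusted p under 0.05. A p that misses the threshold does not show that these genes were unchanged: their 95% intervals reached from 0.20 (CLOCK) to 0.78 (CRY2) on the log2 scale to each side.

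For CBRV1-10493 against control the same 9 ranged from -0.35 (ARNTL) to 0.73 (CRY2), with a median of 0.098 beside 0.0027 over all genes, and 6 lay above 0 (50.8% of all genes). None of them passed, by the same test 0 had an unadjusted p under 0.05, and 2.89% of all genes did. No member's groups were separated there, against 8.96% of all genes in either direction. Between the peptides 0 of these 9 passed and 0% of all genes passed, and PER3 had an unadjusted p under 0.05, as did 4.31% of all genes. Leaving out 1 library moved the CBRV1-10493 values of PER1 between -0.35 and -0.031, of PER2 between 0.033 and 0.26, of PER3 between 0.15 and 0.37, of CLOCK between 0.020 and 0.11, of NR1D2 between -0.28 and -0.13 and of DBP between 0.13 and 0.25. The comparisons against control share the control libraries, so their values are given side by side and not as 2 observations.

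**Figure D3:**
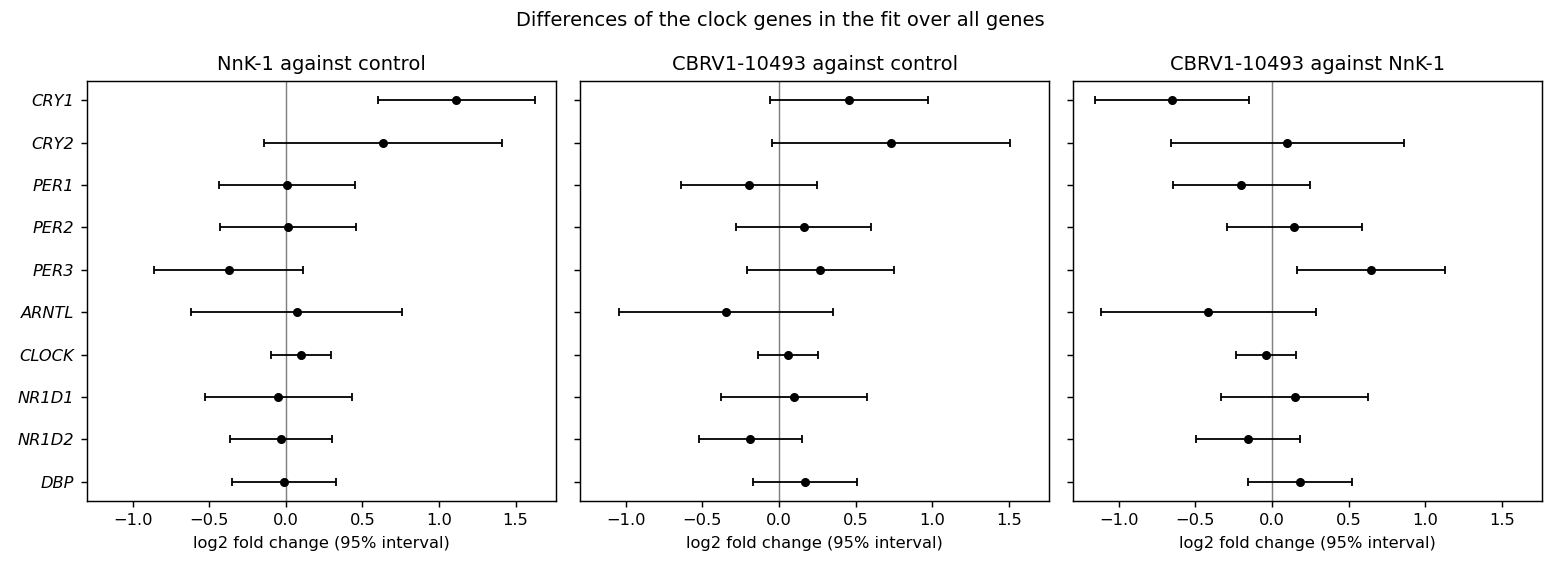
Log2 fold change of each clock gene (points) with its 95% interval (bars) in the 3 comparisons, from edgeR's fit over 13676 genes. For NnK-1 against control CRY1 lies at 1.11, while 7 other members lie within 0.1 of 0; between the peptides CRY1 and PER3 lie on opposite sides.

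The likeness of whole profiles was also described, as the root-mean-square difference between the log2 CPM of CRY1 and of another gene over the 9 libraries, each centred on its own mean. A gene that did not vary at all would be 0.54 away from CRY1. CLOCK was at 0.50, PER1, PER2, NR1D1, NR1D2 and DBP between 0.54 and 0.55, CRY2 at 0.58, ARNTL at 0.71 and PER3 at 0.76. CLOCK ranked 1777 of 10616 genes, the nearest of the members, and PER3 ranked 10133. By this measure all members but CLOCK were farther from CRY1 than a flat profile. The measure also grows with a gene's own spread, so a larger distance does not show that a gene's values are unrelated to those of CRY1.

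The 5 genes nearest to CRY1 were POLR3F (0.28), a subunit of RNA polymerase III, SFT2D2 (0.30), RPRM (0.32), the kinase NEK3 (0.32) and the cofilin phosphatase SSH2 (0.32), and no clock gene was among them. SSH2 stood at 25.2 ± 2.00 CPM in control, 37.4 ± 2.62 with NnK-1 and 30.2 ± 1.40 with CBRV1-10493 (TMM-scaled CPM, SD, n = 3). POLR3F stood at 7.61 ± 1.06, 11.97 ± 2.18 and 9.31 ± 1.36 CPM on that scale. These genes were picked for their likeness out of 10616, so their values describe them and test nothing.

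**Figure D4:**
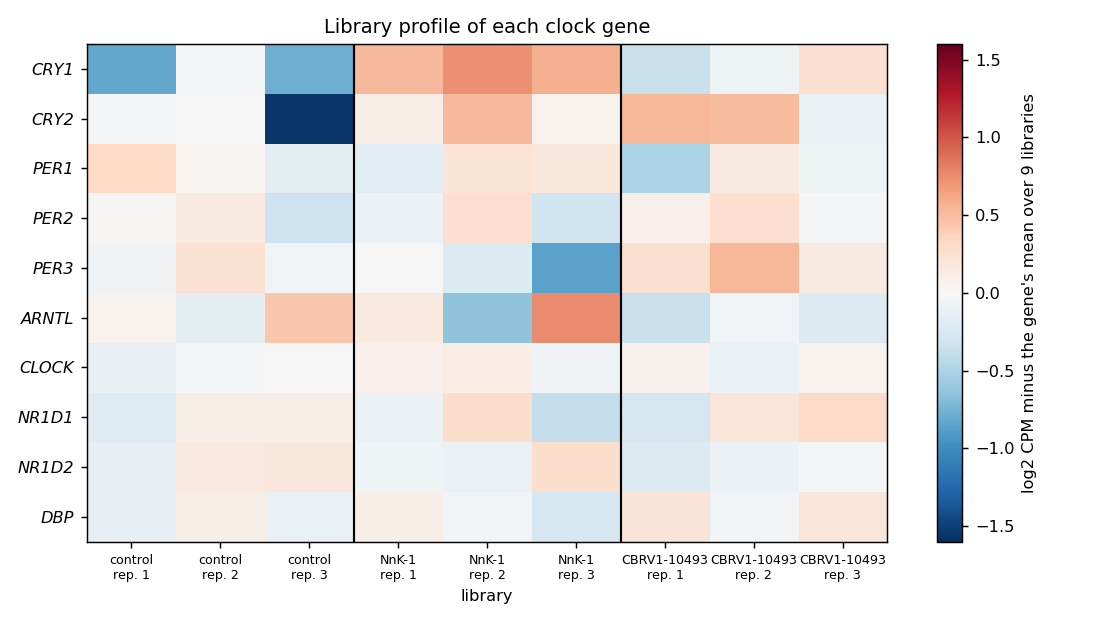
Log2 CPM of each clock gene (rows) in the 9 libraries (columns, grouped by treatment), minus the gene's own mean; red is above and blue below it. CRY1 is above its mean in all NnK-1 libraries (0.52 to 0.73), CRY2 is low in control replicate 3 and PER3 in NnK-1 replicate 3.

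Neighbouring genes on the chromosome were read to see whether CRY1's region differed as a whole. The nearest tested genes on either side of CRY1 were MTERF2, a mitochondrial transcription factor, with a log2 fold change of 0.19 with NnK-1 (interval -0.47 to 0.84), and PWP1 at -0.17 (-0.44 to 0.10). Neither passed (edgeR adjusted p = 0.934 and 0.805). No other annotated gene of the files overlaps CRY1. HES6, next to PER2, was at 0.38 with NnK-1 (0.035 to 0.73; edgeR adjusted p = 0.653), and PER2's other neighbour TRAF3IP1 at 0.083. CRY2's neighbours SLC35C1 and MAPK8IP1 were at 0.076 and 0.0014, PER1's CNTROB and VAMP2 at 0.055 and 0.11, and PER3's VAMP3 and TNFRSF9 at -0.16 and -0.19. Those of ARNTL, TEAD1 and BTBD10, were at 0.093 and 0.058, and those of CLOCK, SRD5A3 and NMU, at 0.081 and -0.12. Beside NR1D1, MED24 and MSL1 were at -0.085 and -0.054, beside NR1D2, RPL15 was at -0.12 and THRB at -1.20, and beside DBP, RPL18 and CA11 were at -0.097 and -0.25. None of these neighbours passed with NnK-1 (edgeR adjusted p of at least 0.653), where 0% of all genes tested passed. By the same test HES6 alone had an unadjusted p under 0.05, beside 7.33% of all genes tested.

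Further genes of the pathway were taken as lists. Of 13 paralogs and other transcription factors of the loops, all in the files, 10 were tested, of which 0 passed by edgeR's test in any comparison and 0, 0 and 1 had an unadjusted p under 0.05 for NnK-1, for CBRV1-10493 and between the peptides. Over all genes tested, 7.33%, 2.89% and 4.31% had such a p by that test, in the same order. RORA and RORB, receptors that oppose NR1D1 and NR1D2, had 71 and 53 reads over all libraries, too few to test. NFIL3, which competes with DBP for D-boxes, had the smallest p of this list with NnK-1. Its mean was 5.71 ± 1.21 CPM in control, 8.86 ± 3.07 with NnK-1 and 5.28 ± 1.82 with CBRV1-10493. Its log2 fold change was 0.67 for NnK-1 (interval -0.0056 to 1.34; edgeR adjusted p = 0.678) and -0.76 between the peptides (-1.44 to -0.085; edgeR adjusted p = 0.994). TIMELESS was at 0.22 with NnK-1. NPAS2, a stand-in for CLOCK, was at -0.87 with CBRV1-10493 (-2.23 to 0.50), from 10 to 11 reads in a library, and at -0.57 with NnK-1. BHLHE41, a repressor of E-box activity, was at 0.11 with CBRV1-10493 and 0.20 between the peptides. The median of the list was 0.11 with NnK-1 and -0.094 with CBRV1-10493.

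Of 32 kinases, ubiquitin ligases and cofactors that act on clock proteins, 31 were tested and 0 passed by edgeR's test in any comparison. By that test 3, 0 and 1 had an unadjusted p under 0.05, beside 7.33%, 2.89% and 4.31% of all genes. The medians were -0.014 for NnK-1 and 0.010 for CBRV1-10493. DDB1, part of a ligase complex that acts on CRY1, stood at 247 ± 19.7 CPM in control and 319 ± 51.5 with NnK-1. The difference, 0.40 in log2 (0.10 to 0.70; edgeR adjusted p = 0.583), did not pass. CREBBP, an acetyltransferase coactivator, stood at 45.1 ± 0.836 CPM in control and 35.6 ± 5.85 with NnK-1 (-0.32, -0.62 to -0.015; edgeR adjusted p = 0.674). The third gene with such a p for NnK-1 was KDM5A at -0.23 (-0.45 to -0.0092; edgeR adjusted p = 0.674). The PER kinase CSNK1D was not among these and was chosen for its role after its value was seen. It was at 0.23 with NnK-1 (-0.0040 to 0.46; edgeR adjusted p = 0.679) and did not pass. With CBRV1-10493 the smallest p-values belonged to PPP1CA at -0.15 and ZFHX3 at -0.25, and between the peptides to CSNK1A1 at 0.24 and the histone demethylase KDM5A at 0.22. PPP1CA was at -0.025 and ZFHX3 at -0.20 with NnK-1.

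Output genes known to cycle in many tissues were read next: of 20 genes, 19 were tested and 0 passed by edgeR's test. By that test 0, 0 and 2 had an unadjusted p under 0.05, beside 7.33%, 2.89% and 4.31% of all genes. The 2 were NFIL3, which is on both lists, and NOCT. Their median was 0.094 with NnK-1 and -0.0048 with CBRV1-10493. The deadenylase NOCT stood at 1.98 ± 0.0902 CPM with CBRV1-10493, 3.84 ± 1.26 with NnK-1 and 3.42 ± 1.24 in control, a log2 fold change of -0.78 against control (interval -1.69 to 0.13; edgeR adjusted p = 1.00) and -0.97 against NnK-1 (-1.88 to -0.058; edgeR adjusted p = 0.994). MTHFD1L was at 0.27 with CBRV1-10493 and 0.21 with NnK-1.

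PER1 and PER2 also answer to glucocorticoid and cAMP signals, so those targets were read beside them. Of 11 glucocorticoid-responsive genes, PER1 among them, 9 were tested and by edgeR's test 0 passed in any comparison. By that test 0 had an unadjusted p under 0.05 in any comparison, beside 7.33%, 2.89% and 4.31% of all genes. With so few genes tested, a count of 0 is near those shares. The medians were 0.0075 for NnK-1 and 0.018 for CBRV1-10493. TSC22D3 (GILZ) was at 0.27 with NnK-1 (interval -0.034 to 0.58) and -0.25 between the peptides, SGK1 was at -0.25 with NnK-1, and FKBP5 was at 0.38 with CBRV1-10493 (-0.058 to 0.82) and 0.44 between the peptides. Of 12 cAMP and serum responsive genes all 12 were tested and 0 passed by edgeR's test. By that test 3, 2 and 1 had an unadjusted p under 0.05, beside 7.33%, 2.89% and 4.31% of all genes. Their median was 0.25 with NnK-1, above that of all genes, and 0.094 with CBRV1-10493. The NnK-1 median fell between 2 genes with few reads, PDE4D at 0.23 (-1.30 to 1.76) and FOS at 0.27 (-1.29 to 1.83). FOSB, NR4A1, NR4A2 and SIK1 had means of 2.81 TMM-scaled CPM or less as well. Of the better covered genes JUN was at 0.080, JUNB at -0.18 and DUSP1 at 0.090 with NnK-1, and EGR1, CREM and ATF3 follow. EGR1 was at 0.59 with NnK-1 (0.072 to 1.11; edgeR adjusted p = 0.637) and CREM, whose ICER product represses cAMP targets, at -0.48 (-0.86 to -0.11; edgeR adjusted p = 0.613). ATF3 was at 0.51 with CBRV1-10493, 0.44 with NnK-1 (0.023 to 0.86) and 0.072 between the peptides. PDE4D was at -1.85 with CBRV1-10493, from 2 to 8 reads in a library, and at 0.23 with NnK-1. Between the peptides PDE4D was at -2.08 and EGR1 at -0.45.

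**Figure D5:**
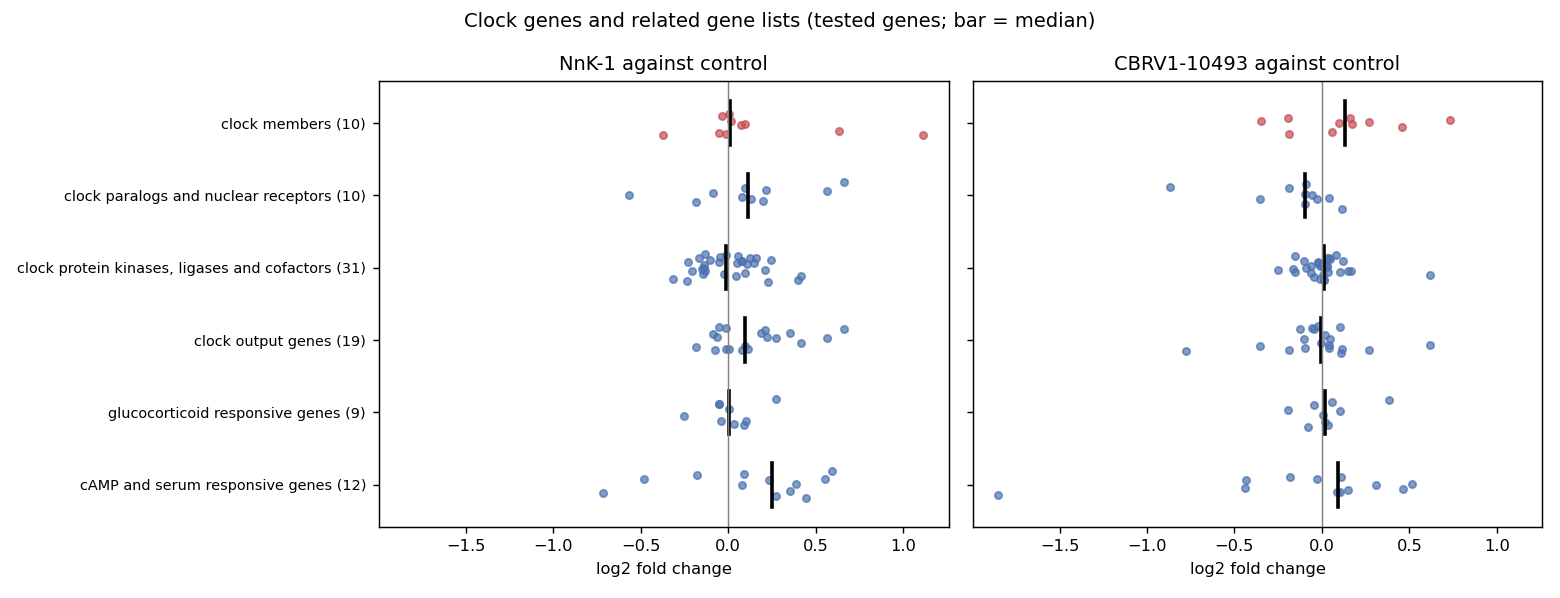
Log2 fold change of every tested gene (points) in the clock list and 5 related lists, for each peptide against control; the black bar is the list's median and the number of tested genes stands beside its name. CRY1 at 1.11 is the rightmost point for NnK-1, and the medians lie between -0.094 and 0.25.

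The clock and the cell cycle are coupled in dividing cells, so 12 genes of G2/M were read as well. They summed to 3548 to 3610 CPM in control, 3490 to 3776 with NnK-1 and 3325 to 3541 with CBRV1-10493, and 0 passed by edgeR's test in any comparison. By that test 0, 1 and 3 had an unadjusted p under 0.05, beside 7.33%, 2.89% and 4.31% of all genes. With NnK-1 CCNB1 was at 0.18 and AURKA at 0.17, with CBRV1-10493 KIF11 was at -0.29 and PLK1 at -0.20, and between the peptides CCNB1 was at -0.30 and CCNB2 at -0.26. KIF11 was at -0.22 and PLK1 at 0.018 with NnK-1. The part of the cell cycle in CRY1's values was not tested.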

How the data were processed

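Counts were read from 9 libraries of U-373MG cells. The authors deposited 1 file per library with raw counts of reads for each gene symbol and no normalization. Bowtie2, bedtools and build hg19 are named in the submitters' processing notes; versions, annotation and strand setting are not given in the sources used here. Rows of 1 symbol were summed (25737 rows, 24462 symbols; no member had several rows), and CPM is count divided by the library total, unless called TMM-scaled (TMM factors 0.970 to 1.01).

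Genes kept by filterByExpr (minimum count 10, total 15) were fitted with edgeR 4.0.16 in R 4.3.3: TMM, quasi-likelihood, 9 libraries in 1 fit, two-sided, Benjamini-Hochberg over 13676 genes, threshold 0.05. The test was checked on simulated counts. The labels do not say that replicates are separate cultures, so p-values measure the spread between libraries, which may be technical. No libraries were duplicates within sampling noise.

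The members and lists were chosen with earlier results of these data known. Named genes are all members, their nearest tested neighbours and overlapping genes, the 2 genes of each list with the smallest p per comparison (marker and interferon lists are given as sums) and the 5 profiles nearest to CRY1. Some list genes, such as CSNK1D, RORA, RORB, JUN and FOS, are named beyond this rule. Alternatives used DESeq2 1.42.0, limma 3.58.1 and edgeR's exact test. Sequences are from RefSeq (GRCh38.p14), a different build from that of the counts, and no coordinates were converted.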

Additional observations from a re-analysis of the deposited data

How the results depend on the processing

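The members' medians stayed within 1 SD of the spread between libraries under all 21 alternatives in each comparison (main values 0.011, 0.13 and 0.029). Genes passing for NnK-1 against control numbered 0, but 74 with no filter on low counts, 2 by DESeq2's Wald test and 8 by edgeR's exact test. For CBRV1-10493 against control they numbered 6 with no filter and 2 by the exact test, and between the peptides 1 with no filter. Among the members 1 passed for NnK-1 with no filter and 1 by the exact test, in both cases CRY1, which was chosen for that difference; the cause was not tested. Leaving out 1 library at a time gave 0 passing genes and 0 passing members throughout.

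Values near 0 changed sign. For NnK-1, PER1 was at -0.010 with upper-quartile factors, -0.022 with library totals only, -0.0050 with the replicate block and -0.064 without the libraries that lay apart (NnK-1 replicate 2 and CBRV1-10493 replicate 1, chosen after seeing the data). PER2 was at -0.0048, -0.015 and, without those libraries, -0.16; ARNTL at -0.0055 by limma-voom; and NR1D2 at 0.039 without those libraries. Between the peptides PER1 was at 0.034 without them. Leaving out 1 library gave, for NnK-1, -0.10 to 0.15 for PER1, -0.16 to 0.14 for PER2, -0.32 to 0.36 for ARNTL, -0.24 to 0.096 for NR1D1, -0.17 to 0.039 for NR1D2 and -0.10 to 0.080 for DBP. For CBRV1-10493 NR1D1 ranged from -0.019 to 0.25, and between the peptides CRY2 from -0.011 to 0.28 and CLOCK from -0.093 to 0.015. The cause was not tested. CRY1, CRY2, PER3 and CLOCK with NnK-1 kept their sign in all 21 alternatives. CRY1 was chosen for that difference, so its sign there is a description and no support.

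Libraries with the same replicate number correlated between -0.057 and 0.13 in their deviations from the group means, and others between -0.093 and 0.097, so the number was not taken as a pairing. The replicate block passed 0 genes in each comparison. At 23 to 120 reads in a library, ARNTL and CRY2 are limited by counting error as well as by the spread between libraries.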

Other observations

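RORA and RORB, receptors which compete with NR1D1 and NR1D2 for the same elements, had too few reads to be tested. RORA had 3, 6 and 29 reads in the control libraries, 4, 15 and 7 with NnK-1 and 4, 2 and 1 with CBRV1-10493. RORB had 1, 5 and 20 reads in control, 8, 4 and 12 with NnK-1 and 0, 2 and 1 with CBRV1-10493. Both were highest in control replicate 3, the library with the lowest CRY2. THRB, the nearest tested gene on one side of NR1D2 and a thyroid hormone receptor, ranged from 0.655 to 5.28 CPM, with log2 fold changes of -1.20 for NnK-1 (interval -2.43 to 0.027; edgeR adjusted p = 0.680) and -1.004 for CBRV1-10493, and neither passed.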
